A study of Mus musculus with 18 samples.

Results

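Bulk RNA sequencing of cultured embryonic mouse kidneys was used to set cells from cultures that received a vector against myosin light chain kinase (Mylk-shRNA) beside cells from cultures that received a vector against Rock1 and Rock2 (Rock1/2-shRNA), in the sorted fraction with low reporter signal. The comparison holds 6 of the 18 libraries of the series, 3 of each vector, chosen by their labels. The kidneys were wild-type CD1, an outbred mouse stock, taken at embryonic day 14. They were exposed for 4 hours to the gene delivery vector AAV2 (adeno-associated virus) and cultured for 72 hours in a gel of collagen I and Matrigel in medium with 10% serum. All cultures, controls included, received a vector with the red fluorescent reporter mCherry and a pair of short hairpin RNA (shRNA) cassettes in a mir30 backbone, driven by the CAG promoter, which is active in most cell types. In Mylk-shRNA both hairpins were aimed at Mylk, each at its own region. In Rock1/2-shRNA 1 hairpin was aimed at Rock1 and 1 at Rock2, and in the control, scramble-shRNA, the Rock1 and Rock2 target sequences were rearranged. Kidneys of a condition were pooled, digested and sorted, and each replicate number marks 1 of 3 litters, so a library holds many cell types from several embryos. The mCherry-negative fraction was the lower 50% of reporter signal and the mCherry-positive fraction the upper 25%. The negative gate is thus a share of the cells and not a count of cells without vector, and reads from the vector were not examined here. In such bulk samples fewer cells of a type and less RNA per cell cannot be told apart.

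The kinases at issue act on the same step from different sides. Myosin light chain kinase, activated by calcium and calmodulin, phosphorylates the regulatory light chain of myosin II and so starts contraction of actin filaments. ROCK1 and ROCK2, activated by the small GTPase RhoA, phosphorylate the same light chain, inhibit the phosphatase that would reset it, and stabilise actin filaments through LIM kinases and cofilin. Actin tension is known to reach transcription through the MRTF coactivators of serum response factor (SRF) and through YAP and TAZ with the TEAD factors. Cells of the negative fraction grew beside reporter-bright cells in the same organs, so the comparison asks whether their transcripts differ according to which vector the culture received.

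SRF binds the CArG box, a short A/T-rich element between a CC and a GG, often close to the start of genes for actin-binding proteins. The box was searched by this definition in the 250 bases before each start in RefSeq's mouse promoters (GRCm38.p6). It reads the same way on both strands, and no other motif was searched. The box lay in 482 of 32851 promoters (1.47%). It lay in at least 1 window of 8 of the 20 members of the MRTF and SRF list found in that table. These were Srf, Actg1, Vcl, Cnn2, Myl9, Fhl1, Fhl2 and Filip1l. The first count is of windows and the second of genes, some with more than 1 window, so the shares are not alike. A match is a description of the letters and not a shown binding site. The stretches for Fhl2 (chr1:43196808-43196897, minus strand) and Filip1l (chr16:57549140-57549229, plus strand) are given 5′ to 3′ because these are the members of the list with a box whose libraries did not overlap between the vectors, with the box in capitals:
Fhl2: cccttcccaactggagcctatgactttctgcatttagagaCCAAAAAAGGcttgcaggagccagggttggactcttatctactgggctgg
Filip1l: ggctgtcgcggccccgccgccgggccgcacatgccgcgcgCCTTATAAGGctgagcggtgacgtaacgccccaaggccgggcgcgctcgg
The box of Fhl2 begins 96 bases and that of Filip1l 62 bases before the annotated start of the window shown. Another window of Fhl2 has a box 31 bases before its start, and another window of Filip1l has none.

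The 6 libraries held 4519242 to 12057209 counts and 27864 to 35685 detected genes. Markers of the labelled tissue were present in each of them: Six2, a nephron progenitor factor, stood at 165 to 367 CPM (counts scaled to a library total of 1e6), the stromal factor Foxd1 at 92.5 to 134 CPM, Pax2 at 71.3 to 140.0 CPM and the epithelial adhesion molecule Epcam at 25.4 to 60.9 CPM. The Mylk-shRNA library of litter 3 stood apart. It had the fewest counts and the most detected genes of the 6, 9.16% of its counts were mitochondrially encoded against 2.36 to 6.26% in the other 5, and 3.80% were long noncoding RNA against 2.67 to 3.11%. In litter 3 the Rock1/2-shRNA library was also the highest of its group in mitochondrial share, at 6.26%.

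No gene passed the test between the vectors. With edgeR's quasi-likelihood test over all 18 libraries, with litter as a block and Benjamini-Hochberg adjustment over 16544 genes, 0 genes (0%) had an adjusted p under 0.05, where 534 (3.23%) had an unadjusted p under 0.05. DESeq2 also called 0, with 309 genes at an unadjusted p under 0.05. That count was 121 with no litter block and 1290 without the Mylk-shRNA library of litter 2, with 0 called in both. Of the 534, 342 (2.07% of all tested) were fitted higher with Mylk-shRNA and 192 (1.16%) lower. In 285 genes (1.72%) all 3 Mylk-shRNA libraries lay above all 3 Rock1/2-shRNA libraries, and in 321 (1.94%) all 3 lay below. Intervals were narrow for genes with at least 5 CPM on average. The 95% interval of the fold change lay wholly within 2-fold in either direction for 11839 of 11920 of them (99.3%). It lay within 1.5-fold for 10976 (92.1%). Below 5 CPM it lay within 2-fold for 2584 of 4624 genes (55.9%), and for the remaining genes below 5 CPM a 2-fold difference was not excluded at this depth. The plot of all genes shows this narrowing with expression.

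**Figure D1:**
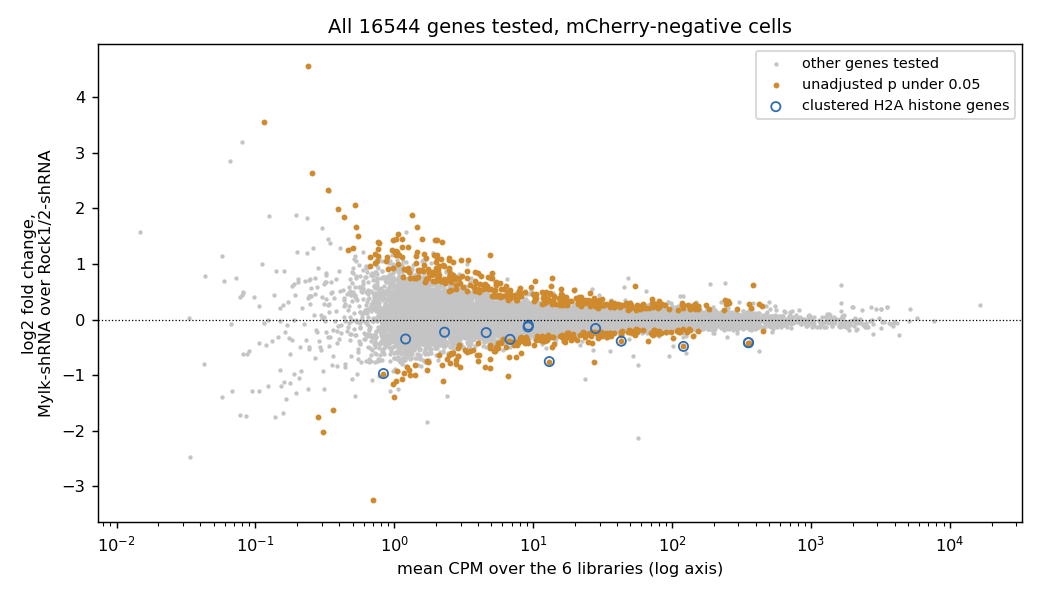
Log2 fold change of Mylk-shRNA over Rock1/2-shRNA in mCherry-negative cells against the mean CPM of the 6 libraries (log axis), 1 point a gene for the 16544 genes tested, with the 534 genes at an unadjusted p under 0.05 in orange and 13 clustered H2A histone genes ringed in blue. The spread narrows as expression rises, no gene passed the adjusted threshold, and all 13 ringed genes lie below 0.

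Transcripts of the targeted kinases did not separate the vectors in this fraction. Mylk, encoding myosin light chain kinase, stood at 75.5, 59.1 and 86.3 CPM in litters 1 to 3 with Mylk-shRNA and at 63.9, 63.4 and 66.8 CPM with Rock1/2-shRNA. The groups overlapped, and Mylk was the higher in the culture that carried hairpins against it in litters 1 and 3. Its fitted level with Mylk-shRNA was 113% of that with Rock1/2-shRNA (95% interval 94.9 to 133%). Rock1, encoding the first of the ROCK kinases, stood at 78.1, 75.8 and 101 CPM with Mylk-shRNA and at 80.5, 90.9 and 73.6 CPM with Rock1/2-shRNA. Rock2, its close relative, stood at 76.8, 65.2 and 106 CPM against 70.4, 76.3 and 69.3 CPM. For both, the high value was the Mylk-shRNA library of litter 3, and the groups overlapped. Fitted levels of Rock1 and Rock2 with Mylk-shRNA were 103% (86.8 to 122%) and 112% (94.7 to 133%) of those with Rock1/2-shRNA. By the exact two-sided permutation test of the CPM, p was 0.4 (Mylk), 0.8 (Rock1) and 0.6 (Rock2), the smallest p for groups of this size being 0.1, and the edgeR adjusted p was 1 for each. This permutation test takes no account of litter. Without litter 3 the fitted log2 difference was -0.13 for Rock1 and -0.024 for Rock2, so the direction of both rested on that litter. The targeted genes therefore give no check of the vector labels in the negative fraction. In positive cells Mylk stood at 169, 187 and 168 CPM with Mylk-shRNA and at 223, 177 and 151 CPM with Rock1/2-shRNA. Rock1 stood there at 72.9, 93.6 and 89.5 CPM against 82.2, 83.9 and 74.7 CPM. Rock2 stood at 64.5, 76.8 and 76.7 CPM against 56.2, 67.7 and 65.0 CPM, lower with Rock1/2-shRNA in each litter. The groups overlapped for each of these genes in positive cells too.

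**Figure D2:**
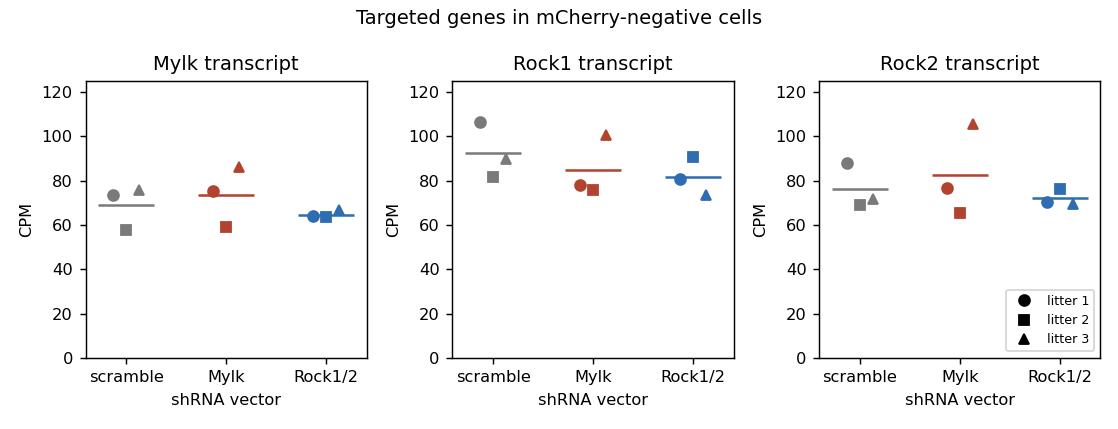
CPM of Mylk, Rock1 and Rock2 in the 9 mCherry-negative libraries by vector, with symbols for the 3 litters and a line at the mean of each group. The vectors overlap in each panel, and the Mylk-shRNA library of litter 3 is the highest of its group for all 3 genes.

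Genes of the contractile machinery itself lay close together. Of 30 actomyosin regulators tested, 0 were called, 19 were fitted higher with Mylk-shRNA (against 49.5% of all genes) and the median log2 fold change was 0.04, beside -0.0017 over all genes. In none of the 30 did the libraries of the vectors separate, where 1.72% of all genes separated above and 1.94% below. Myl9, a regulatory light chain and so a substrate of the targeted kinases, stood at 26.8, 16.4 and 31.0 CPM with Mylk-shRNA and at 21.9, 18.1 and 21.2 CPM with Rock1/2-shRNA, with a log2 fold change of 0.23 ± 0.18 (SE). Limk2, a LIM kinase downstream of ROCK, stood at 18.9, 17.3 and 15.6 CPM against 18.01, 18.3 and 22.2 CPM. The groups overlapped for both genes, and the fitted difference of Limk2, -0.15, lay at 0.014 without litter 3. The nonmuscle myosin heavy chains Myh9 and Myh10, with fitted values of 0.05 and 0.10, and Rhoa, the GTPase that activates ROCK, at -0.04, also lay near 0.

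MRTF and SRF targets had 15 of 24 members fitted higher and a median of 0.06. Of them 0 were called and 0 had an unadjusted p under 0.05, where 3.23% of all genes did. The 3 members whose libraries did not overlap were all higher with Mylk-shRNA, where 1.72% of all genes had that order. Fhl2, a LIM-domain cofactor that binds SRF and whose promoter box is shown above, stood at 182, 194 and 188 CPM with Mylk-shRNA and at 171, 148 and 178 CPM with Rock1/2-shRNA. Its log2 fold change was 0.19 (95% interval -0.03 to 0.41, edgeR adjusted p = 1). Filip1l, a filamin-interacting protein, stood at 23.5, 21.5 and 26.3 CPM against 19.9, 21.4 and 18.8 CPM, and in litter 2 the vectors differed by less than 0.1 CPM. Cnn1, the smooth muscle calponin, was near the floor of detection, at 1.41, 1.33 and 1.99 CPM against 0.609, 0.922 and 0.7125 CPM. Its interval ran from -0.54 to 2.63, and its 250-base window holds no CArG box. The actins at the other end of the expression range, Actb at -0.12 and Actg1 at -0.00, and Srf itself at -0.07, were not separated.

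YAP and TEAD genes had 12 of 16 members fitted higher and a median of 0.04. Of them 0 had an unadjusted p under 0.05, where 3.23% of all genes did. Tead1, a DNA-binding partner of YAP, stood at 85.5, 72.7 and 103 CPM with Mylk-shRNA and at 78.1, 81.3 and 72.8 CPM with Rock1/2-shRNA, so that the vectors overlapped. The standard YAP reporter genes Ccn1 and Ccn2, encoding matricellular proteins, had fitted values of 0.07 and 0.01. Focal adhesion and matrix genes were divided, 16 of 28 higher and a median of 0.01. Tnc, encoding the matrix glycoprotein tenascin-C, was the member with the smallest unadjusted p (0.0334). It stood at 42.9, 47.9 and 45.4 CPM with Mylk-shRNA and at 42.0, 41.1 and 31.2 CPM with Rock1/2-shRNA, without overlap, with a log2 fold change of 0.25 (0.02 to 0.47) and an edgeR adjusted p of 1. Lama5, a laminin chain of epithelial basement membranes, went the other way in each litter, at 23.3, 25.2 and 16.6 CPM against 24.6, 33.4 and 21.4 CPM, with overlapping groups.

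Markers of nephron progenitors and of the ureteric tree lay mostly below 0. Of 19 nephron progenitor markers tested 16 were fitted lower with Mylk-shRNA, with a median of -0.12, where 50.5% of all genes were fitted lower. Six2 stood at 288, 364 and 165 CPM with Mylk-shRNA and at 367, 337 and 250.3 CPM with Rock1/2-shRNA. Sall1, a zinc finger factor of the progenitors, stood at 203, 227 and 122 CPM against 224, 258 and 143 CPM, lower in each litter although the groups overlapped. The median of the list was not of 1 sign across litters: it was -0.20 in litter 1, 0.20 in litter 2 and -0.43 in litter 3, with the difference taken between log2 CPM of the same litter. Ureteric bud tip markers were fitted lower in 11 of 12, with a median of -0.19 and litter medians of -0.02, -0.22 and -0.16. Gfra1, the GDNF co-receptor, was the member with the smallest p in that list, and is also made by other cells of the kidney. It stood at 59.9, 77.5 and 36.6 CPM with Mylk-shRNA and at 94.97, 75.7 and 58.7 CPM with Rock1/2-shRNA, with a log2 fold change of -0.39 (-0.76 to -0.03), an unadjusted p of 0.0377 and an edgeR adjusted p of 1. Etv4, an ETS factor induced by GDNF and RET signalling, stood at 29.4, 32.8 and 23.01 CPM against 37.0, 37.1 and 32.8 CPM. The ureteric trunk and collecting duct markers, 9 of 12 lower with a median of -0.15, changed sign between litters, from 0.22 in litter 1 to -0.50 in litter 2.

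Among differentiated nephron segments, early nephron markers were split evenly, 10 of 20 higher with a median of 0.0026. Their litter medians ran from 0.35 in litter 1 to -0.40 in litter 2. Podocyte markers had 8 of 13 members higher and a median of 0.01. Robo2, a receptor for Slit ligands, was lower without overlap, at 88.9, 97.9 and 92.9 CPM against 112, 98.7 and 104 CPM, and litter 2 differed by under 1 CPM. Proximal tubule markers had 14 of 18 members lower and a median of -0.09, and loop of Henle and distal tubule markers 6 of 11 higher and a median of 0.0026. Sostdc1, a secreted antagonist of BMP and Wnt signals, was the only segment marker in these lists with an unadjusted p under 0.05. It stood at 4.33, 3.90 and 4.43 CPM with Mylk-shRNA and at 5.66, 7.61 and 5.13 CPM with Rock1/2-shRNA, without overlap, and its log2 fold change was -0.56 (-1.09 to -0.03).

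Stromal, mural and endothelial markers lay mostly above 0. Interstitial stroma markers were fitted higher with Mylk-shRNA in 19 of 20, the exception being Aldh1a2, an enzyme of retinoic acid synthesis. The median was 0.08, and it was above 0 in all 3 litters, at 0.04, 0.08 and 0.21. Tbx18, a factor of the stroma around the ureter, stood at 13.5, 11.9 and 16.8 CPM with Mylk-shRNA and at 9.66, 12.3 and 7.98 CPM with Rock1/2-shRNA, with a log2 fold change of 0.45 (0.08 to 0.82). Postn, encoding the matrix protein periostin, stood at 46.1, 53.2 and 57.3 CPM against 39.8, 48.5 and 39.9 CPM, higher in each litter with overlapping groups. These were the 2 members at an unadjusted p under 0.05 (0.0199 and 0.0450), with edgeR adjusted p of 1, where 2.07% of all genes were at such a p and higher with Mylk-shRNA. The summed level of the list was 6763, 6226 and 6437 CPM against 6270.4, 6336 and 5947 CPM, and the exact two-sided permutation test, which takes no account of litter, gave p = 0.3, or 0.83 after Benjamini-Hochberg adjustment over 11 such values.

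Endothelial markers were fitted higher in 17 of 19, with a median of 0.18. Cdh5, the cadherin of endothelial junctions, stood at 83.6, 76.7 and 87.6 CPM with Mylk-shRNA and at 56.9, 68.6 and 78.4 CPM with Rock1/2-shRNA. It was higher in each litter, although the highest Rock1/2-shRNA library lay above the lowest Mylk-shRNA library. Erg, an ETS factor of endothelial identity, stood at 5.30, 4.93 and 6.53 CPM against 2.83, 5.19 and 3.78 CPM, with a log2 fold change of 0.54 (0.07 to 1.02) and an unadjusted p of 0.0277. The median of the list was 0.37 in litter 1, -0.07 in litter 2 and 0.13 in litter 3. The smooth muscle, pericyte and renin cell list had 12 of 16 members higher and a median of 0.12. Myh11, the smooth muscle myosin heavy chain, stood at 2.12, 1.49 and 5.31 CPM against 0.696, 1.04 and 1.14 CPM, without overlap. Its log2 fold change of 1.44 had an interval from 0.00 to 2.87, while Acta2, the abundant smooth muscle actin, was fitted at 0.16. Ren1, encoding renin, had a fitted value of -0.73 at 0.883 to 3.22 CPM.

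The plot of gene lists sets these medians side by side with those of the 3 litters. In 27 of the 31 lists with at least 5 members tested the litter medians lay on both sides of 0, and in all 31 they ranged over more than the size of the list median. Several medians turned sign when 1 library was left out. Without the Mylk-shRNA library of litter 3 the median was 0.01 for nephron progenitor markers, -0.05 for the smooth muscle list, -0.03 for MRTF and SRF targets, -0.01 for YAP and TEAD genes and -0.0085 for actomyosin regulators. Without the same library it was -0.02 for immediate early genes, 0.04 for nuclear oxidative phosphorylation and 0.10 for cytosolic ribosomal proteins. Without the Rock1/2-shRNA library of litter 1 the MRTF and SRF median was -0.02, and without the Rock1/2-shRNA library of litter 2 that of proximal tubule markers was 0.11 and that of trunk and collecting duct markers 0.0033. Without the Mylk-shRNA library of litter 2 the proximal tubule median was 0.04, and without that of litter 1 the interferon median was -0.01. The endothelial median ranged from 0.05, without the Mylk-shRNA library of litter 1, to 0.39, without that of litter 2.

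**Figure D3:**
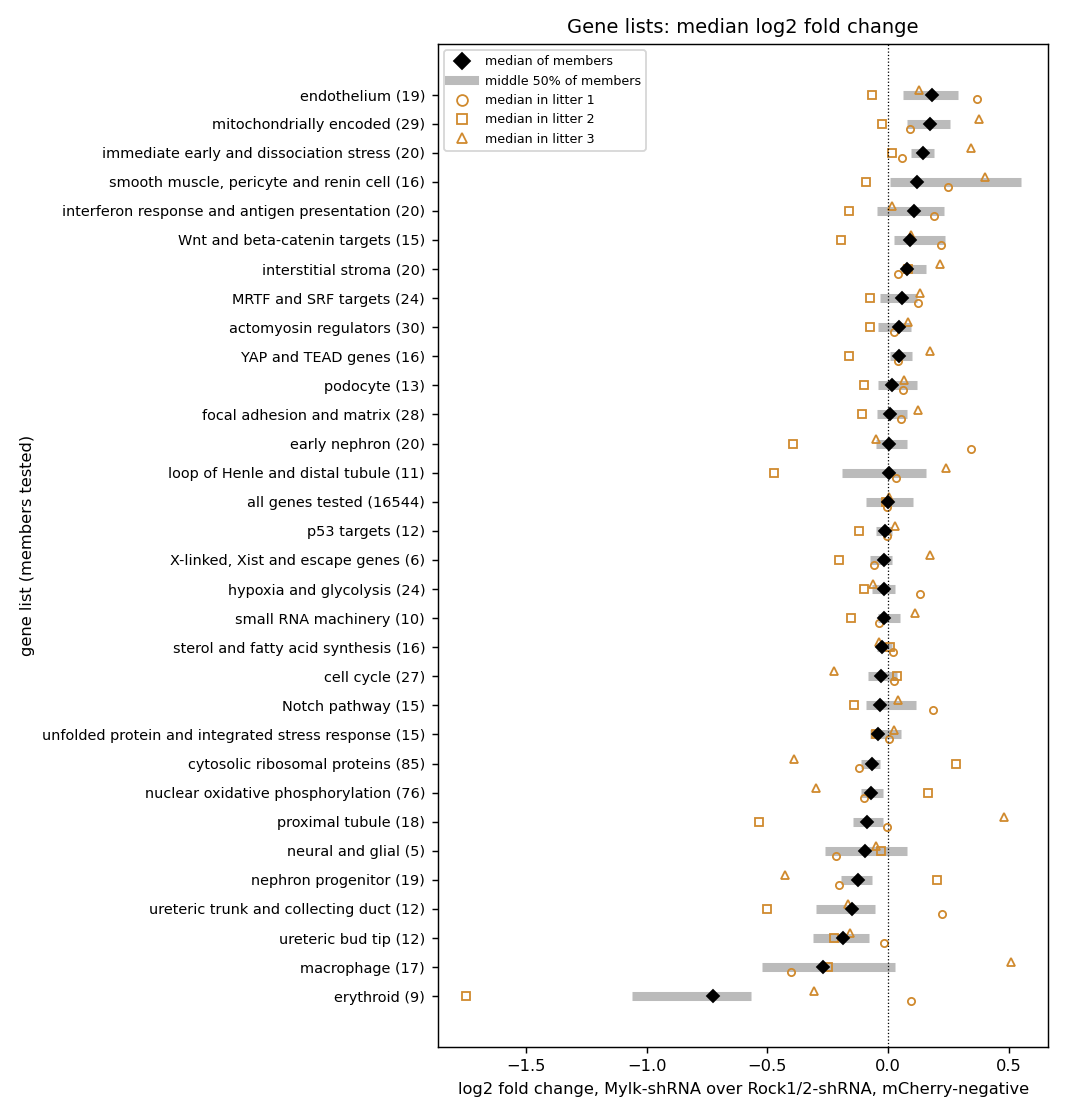
Median log2 fold change of Mylk-shRNA over Rock1/2-shRNA in mCherry-negative cells for each gene list with at least 5 members tested (black diamonds, from the fit), the middle 50% of the members (grey bars) and the median difference within each litter (open symbols). Endothelium is the highest at 0.18 and erythroid the lowest at -0.73, and in 27 of 31 lists the litter medians lie on both sides of 0.

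Transcripts of macrophages were scarce in the negative fraction. All 17 macrophage markers tested had means of 3.25 CPM or less over the 6 libraries, summing to 13.8 to 26.1 CPM with Mylk-shRNA and 16.5 to 20.1 CPM with Rock1/2-shRNA. The lysosomal protease Ctss stood at 0.530, 0.332 and 0.885 CPM against 1.218, 1.27 and 0.427 CPM. Erythroid markers were fitted lower with Mylk-shRNA in 8 of 9, with a median of -0.73, and summed to 148, 101 and 145 CPM against 126, 371 and 199.9 CPM. The litter medians of this list were 0.09, -1.75 and -0.31, and without the Rock1/2-shRNA library of litter 2 its fitted median was 0.11, so its direction rested on that library. Hbb-bt, an adult beta-globin gene whose sequence is close to that of Hbb-bs, stood at 18.9, 12.15 and 11.2 CPM against 19.9, 54.1 and 26.5 CPM, and the high value was the Rock1/2-shRNA library of litter 2. Ahsp, encoding the chaperone of free alpha-globin, stood at 0.177, 0.0829 and 0 CPM against 0.609, 1.61 and 1.71 CPM, without overlap. Its unadjusted p was 0.000432 and its edgeR adjusted p 1, and its fitted log2 fold change, -3.25, depends on the prior count because 1 library was at 0. The part of blood cell transcripts in the other differences was not tested.

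Stress and signalling lists had 0 genes called. At an unadjusted p under 0.05 there were 2 of 20 immediate early genes, 1 of 20 interferon genes, 2 of 15 Wnt genes and 3 of 15 Notch genes, where 3.23% of all genes were. Immediate early and dissociation stress genes were fitted higher in 19 of 20, with a median of 0.15 and litter medians of 0.06, 0.02 and 0.34, the last from the litter of the library with the high mitochondrial share. Klf4, a zinc finger factor of the early response, stood at 43.2, 19.5 and 44.4 CPM with Mylk-shRNA and at 30.8, 20.995 and 34.5 CPM with Rock1/2-shRNA, and the groups overlapped. The exception among the 20 was Dnajb1, a heat shock co-chaperone, fitted at -0.14 without overlap. In the interferon and antigen presentation list, 14 of 20 were higher with a median of 0.11. H2-K1, a class I histocompatibility heavy chain with near relatives in the genome, stood at 161, 141 and 143 CPM against 134, 119 and 127 CPM. All 3 Mylk-shRNA libraries lay above the others, with a log2 fold change of 0.23 (0.07 to 0.40), an unadjusted p of 0.00817 and an edgeR adjusted p of 1.

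Wnt and beta-catenin targets had 11 of 15 members higher and a median of 0.09, with litter medians from -0.19 to 0.22. Notum, a secreted enzyme that inactivates Wnt ligands, stood at 33.6, 19.99 and 15.5 CPM with Mylk-shRNA and at 20.8, 14.5 and 12.8 CPM with Rock1/2-shRNA, higher in each litter, with a log2 fold change of 0.53 (0.12 to 0.93) and an unadjusted p of 0.0135. Dkk1, an antagonist of the Wnt co-receptors, stood at 29.3, 29.9 and 19.5 CPM against 27.8, 20.2 and 14.96 CPM, again higher in each litter. For both genes the groups overlapped. In the Notch list, where 7 of 15 were higher, the ligands Jag2 and Dll4 separated and the target Heyl lay the other way. Jag2 stood at 9.27, 8.045 and 10.6 CPM against 5.31, 6.80 and 7.41 CPM, and Dll4, which is made by arterial endothelium, at 25.4, 24.1 and 33.6 CPM against 17.2, 23.9 and 23.9 CPM. Heyl, a repressor induced by Notch, stood at 81.3, 72.8 and 41.6 CPM against 81.7, 94.3 and 59.8 CPM. Log2 fold changes were 0.52, 0.35 and -0.27, and the edgeR adjusted p was 1 for each.

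In the remaining lists, Vegfa, the endothelial growth factor in the hypoxia and glycolysis list, stood at 571, 382 and 479 CPM with Mylk-shRNA and at 477, 400.4 and 337 CPM with Rock1/2-shRNA, and 11 of 24 members were higher. Mcm6, a subunit of the replicative helicase in the cell cycle list, stood at 153, 165 and 107 CPM against 166, 189 and 137 CPM, lower in each litter, while 18 of 27 members were lower with a median of -0.03. Scd1, a fatty acid desaturase, had a fitted value of 0.26 in a sterol and fatty acid list with 6 of 16 members higher. The unfolded protein and integrated stress response list had 10 of 15 members lower, p53 targets 8 of 12, and neural and glial markers 3 of 5. Of the small RNA machinery that processes hairpins, 7 of 10 were lower with a median of -0.02. Drosha, the nuclease that crops hairpins in the nucleus, stood at 45.1, 45.2 and 31.8 CPM against 50.6, 53.4 and 39.5 CPM, lower in each litter.

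Genes of energy metabolism and translation lay to one side of 0 in many members, by small amounts. Mitochondrially encoded transcripts were fitted higher with Mylk-shRNA in 25 of 29, with a median of 0.17, and 12 of the 29 were higher in each litter, where 9.53% of all genes were. Their summed level was 31804, 23552 and 91582 CPM with Mylk-shRNA and 28858, 27410 and 62601 CPM with Rock1/2-shRNA, so both libraries of litter 3 were high, and the Mylk-shRNA library was the higher in litters 1 and 3 and the lower in litter 2. Nuclear genes of oxidative phosphorylation were fitted lower in 63 of 76, with a median of -0.07, and 14 were lower in each litter, where 10.9% of all genes were. Cytosolic ribosomal protein genes were fitted lower in 77 of 85, with a median of -0.07 and litter medians of -0.12, 0.28 and -0.39. None of the genes tested in these lists had an unadjusted p under 0.05, where 3.23% of all genes did.

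Transcripts linked to the X and Y chromosomes differed between the pools of kidneys. Xist, the RNA of the inactive X chromosome, stood at 235, 141 and 320.0 CPM with Mylk-shRNA and at 181, 253 and 1.71 CPM with Rock1/2-shRNA. The Rock1/2-shRNA library of litter 3 thus nearly lacked it. The 4 Y-linked genes Ddx3y, Uty, Eif2s3y and Kdm5d summed to 83.6, 78.7 and 157 CPM with Mylk-shRNA and to 49.8, 22.6 and 179 CPM with Rock1/2-shRNA. In litters 1 and 2 the Mylk-shRNA libraries were the higher in the sum and in litter 3 the lower, with an exact two-sided permutation p of 0.6. Eif2s3y, encoding a subunit of a translation initiation factor, stood at 19.95, 22.1 and 45.8 CPM against 12.4, 6.57 and 51.7 CPM, while Eif2s3x, its X-linked relative, had a fitted value of -0.09. The fitted log2 fold change of Xist was 0.65 (-2.09 to 3.38), and -0.12 without the Rock1/2-shRNA library of litter 3. The part of these differences between pools in other results was not tested.

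**Figure D4:**
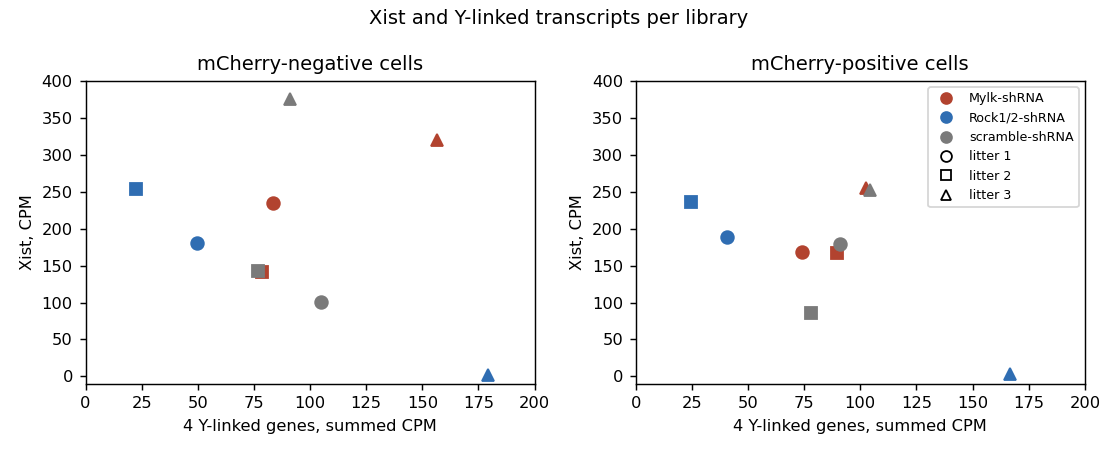
Xist CPM against the summed CPM of 4 Y-linked genes in each library of the negative (left) and positive (right) fraction, coloured by vector, with symbols for litters. The Rock1/2-shRNA libraries of litter 3 lie at the lower right in both fractions, with Xist at 1.71 and 3.92 CPM, while the negative Mylk-shRNA libraries have both Xist and Y-linked transcripts.

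The 20 genes with the smallest unadjusted p among those with at least 5 CPM on average, a symbol and the same direction in each litter had unadjusted p-values of 0.000697 to 0.00681 and an edgeR adjusted p of 1. Of these, 12 were fitted higher with Mylk-shRNA and 8 lower. Adpgk, an ADP-dependent glucokinase, stood at 41.6, 39.3 and 40.5 CPM with Mylk-shRNA and at 33.8, 33.0 and 30.4 CPM with Rock1/2-shRNA, a log2 fold change of 0.32 ± 0.09 (SE). Baiap2l2, a membrane-bending protein of epithelial microvilli, stood at 16.8, 12.7 and 13.9 CPM against 10.8, 8.64 and 11.6 CPM, a log2 fold change of 0.50 ± 0.13. Scn7a, a member of the voltage-gated sodium channel family, stood at 9.71, 7.13 and 7.08 CPM against 5.74, 5.65 and 5.27 CPM, without overlap. Ap4e1, a subunit of the AP-4 vesicle adaptor, also separated, with its highest value of 14.2 CPM in the Mylk-shRNA library of litter 3.

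On the lower side, Ids, the lysosomal iduronate sulfatase, stood at 12.1, 9.95 and 11.9 CPM with Mylk-shRNA and at 15.3, 17.98 and 14.2 CPM with Rock1/2-shRNA, a log2 fold change of -0.49 ± 0.13 (SE). Aar2, a factor in the assembly of the U5 splicing particle, stood at 21.98, 22.4 and 23.9 CPM against 26.2, 35.4 and 29.6 CPM. Both genes separated without overlap. Scap, the escort protein of the sterol-regulated SREBP factors, stood at 33.8, 35.2 and 28.3 CPM against 38.7, 44.0 and 38.6 CPM, a log2 fold change of -0.30 ± 0.10. Utp14b, a ribosome biogenesis factor, and Dtnb, encoding dystrobrevin beta, separated in the same direction, with log2 fold changes of -0.44 and -0.34.

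The histone genes H2ac8, H2ac11 and H4c4 were among the 20. H2ac8 stood at 14.8, 8.03 and 5.86 CPM with Mylk-shRNA and at 25.995, 11.7 and 11.99 CPM with Rock1/2-shRNA, a log2 fold change of -0.76 ± 0.19 (SE). H4c4 stood at 21.3, 22.2 and 17.5 CPM against 31.2, 41.5 and 29.2 CPM, without overlap. Clustered histone genes are near-identical copies whose reads the counting could divide, so a difference of 1 copy is uncertain. The libraries were of poly(A) RNA, and how completely they captured histone transcripts was not tested. When no filter on low counts was applied, which brings 51841 genes into the fit, 5 genes passed at an adjusted p under 0.05 by the same edgeR test. These were H2ac8 (adjusted p = 0.0129), H2ac11 (0.0231), H4c4 (0.0261), Ahsp (0.0261) and the predicted gene Gm56626 (0.0281). The histone genes had also been tested with the filter, where they did not pass. Their SEs, in the same order, were 0.150, 0.103 and 0.152 without the filter and 0.193, 0.142 and 0.237 with it. The edgeR unadjusted p of H2ac8 was 2.5e-07 without it and 0.000815 with it. The cause of this change was not tested.

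Several of the higher genes were highest in the Mylk-shRNA library that stood apart. Dleu2, a long noncoding RNA that hosts microRNAs, stood at 13.6, 11.6 and 32.7 CPM with Mylk-shRNA and at 9.69, 10.5 and 16.5 CPM with Rock1/2-shRNA. Mir181a-1hg, another microRNA host transcript, stood at 9.36, 5.60 and 38.5 CPM against 5.05, 5.47 and 17.6 CPM. Acrbp, an acrosin-binding protein gene best known from testis, stood at 8.70, 6.47 and 19.9 CPM against 4.61, 5.99 and 12.3 CPM. In these 3 genes both libraries of litter 3 were the highest of their groups, and the groups overlapped. The noncoding Ino80dos, at 16.04 CPM, and Niban3, at 9.74 CPM, had their highest value in the same Mylk-shRNA library, whose share of long noncoding counts was the highest of the 6. The part of that share in these results was not tested. Kank3, Trmt1l and Cers4 complete the higher genes, with log2 fold changes of 0.38, 0.32 and 0.37 and overlapping groups.

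**Figure D5:**
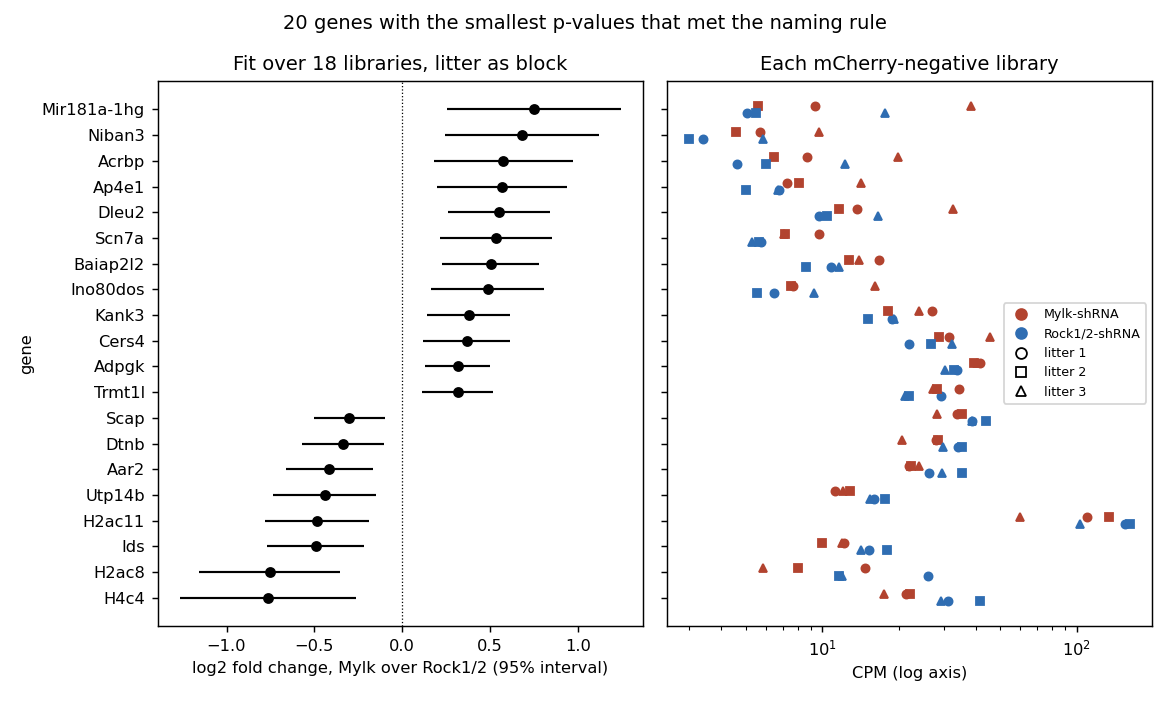
The 20 genes by log2 fold change with its 95% interval (left) and the CPM of each library on a log axis (right), in red for Mylk-shRNA and blue for Rock1/2-shRNA, with symbols for litters. Intervals exclude 0 before adjustment, adjusted p is 1 for each gene, and triangles of litter 3 lie to the right for Dleu2, Mir181a-1hg and Acrbp.

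In the mCherry-positive cells of the same cultures, Mylk-shRNA against Rock1/2-shRNA called 0 of 16544 genes by edgeR (477, or 2.88%, at an unadjusted p under 0.05). The test of whether the difference between the vectors itself differed between the fractions also called 0 genes (400, or 2.42%, at an unadjusted p under 0.05, and 212 by DESeq2, which called 0). Adpgk had a log2 fold change of 0.32 in negative and -0.12 in positive cells, with an unadjusted p of 0.00377 for the difference. Acrbp had 0.58 and -0.60, with an unadjusted p of 0.00119. Tbx18 had 0.45 and 0.55, Postn 0.28 and 0.37, and Cdh5 0.29 in both. Interaction adjusted p-values from edgeR were 1 for these 5 genes. Interstitial stroma markers were higher with Mylk-shRNA in 15 of 20 in positive cells, against 50.4% of all genes. Endothelial markers were higher there in 16 of 19 and ribosomal protein genes in 2 of 85. The ribosomal litter medians were 0.02, -0.31 and -0.13 in positive cells, beside -0.12, 0.28 and -0.39 in negative cells. Other lists went opposite ways in the fractions. Mitochondrially encoded genes were higher in 25 of 29 in negative and 10 of 29 in positive cells, with medians of 0.17 and -0.09. Macrophage markers, scarce in negative cells, were higher in 5 of 17 and 13 of 17. The erythroid list, lower in 8 of 9 in negative cells, was higher in 8 of 9 in positive cells, and its median in negative cells turned sign without the Rock1/2-shRNA library of litter 2, as given above. The fractions come from the same cultures, so these are not independent litters.

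Against scramble-shRNA in negative cells, edgeR called 0 genes for Mylk-shRNA (1050, or 6.35%, at an unadjusted p under 0.05) and 0 for Rock1/2-shRNA (644, or 3.89%). Both comparisons share the same 3 scramble libraries, so their values are only set side by side. Median log2 fold changes of the endothelial list were 0.40 for Mylk-shRNA and 0.17 for Rock1/2-shRNA, and those of the nephron progenitor list -0.23 and -0.11. Those of the ureteric bud tip list were -0.27 and -0.03. Scramble-shRNA means were 34.6 ± 4.8 CPM (SD, n = 3) for Adpgk and 10.1 ± 0.81 CPM for Baiap2l2, nearer to the Rock1/2-shRNA libraries, and 21.3 ± 9.1 CPM for H4c4, nearer to the Mylk-shRNA libraries. For Ids, at 14.2 ± 0.76 CPM, the scramble-shRNA mean lay between the group means.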

How the data were processed

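Poly(A) RNA of sorted cells was sequenced in 18 libraries, and the 6 of the negative Mylk-shRNA and Rock1/2-shRNA groups were compared. The authors deposited estimated counts, 22.1 to 27.4% of the nonzero values being fractions, and CPM, the counts scaled to a library total of 1e6, as checked on the table. Per the submitters' processing notes, tools included fastp 0.24.0, STAR 2.7.11 and featureCounts from Subread 2.1.1, with the build GRCm39. Tool options, gene annotation and strand handling were not given in the sources used here, so overlapping and antisense genes cannot be told apart.

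Counts were rounded, 92 ERCC spike-in rows left out, and genes filtered with filterByExpr (minimum count 10, total 15), leaving 16544 of 78317. edgeR 4.0.16 (R 4.3.3) was run with TMM scaling and robust quasi-likelihood dispersions on 18 libraries. The design had 6 group means and litter as a block (10 residual degrees of freedom). It had no term for the culture, so both fractions of a culture counted as independent and these degrees of freedom may be overstated. Benjamini-Hochberg adjustment covered all tested genes (threshold 0.05), and adjusted p-values of genes are from this test where no other tool is named. The series text says that a replicate's kidneys come from 1 litter. Libraries of the same litter deviated together from their group means, with r = 0.237 to 0.639 over 45 pairs, against -0.544 to 0.310 over 90 pairs of different litters. These ranges overlap. Deviations within a group sum to 0 over its 3 litters, so the second range is not independent of the first. With litter as a block, p-values set the vector difference against the spread that remains between libraries once litter differences are removed. That spread was estimated over all 6 groups, and the litter effect was taken as the same in both fractions. Within a group, pairs of libraries had a chi-square per gene between 4.29 and 52.1, above sampling noise, so none was treated as a duplicate. Litter differences are of log2 CPM with a prior count of 2. A group is called separated where all 3 CPM values of one vector lie on one side of those of the other. Standard errors of log2 fold changes had a median of 0.120 for genes with at least 5 CPM and 0.334 below.

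The members, the 34 gene lists and the rules were chosen with earlier results of these data known. Genes were named as follows: the targeted genes, then, with no gene called, the 20 smallest unadjusted p-values with at least 5 CPM, the same sign in 3 litters, a symbol, and no predicted gene or pseudogene, then up to 4 members of each list by p. A selection of the latter is given, and other list members were named after their values were seen. Alternatives were no litter block, DESeq2 1.42.0, its size factors, no low-count filter, fewer libraries in the fit, a litter effect per fraction, and leaving out litter 3 or each library in turn. The test was tried on simulated counts. Coordinates are given only for RefSeq promoters of GRCm38.p6, another build than that of the files.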

Additional observations from a re-analysis of the deposited data

How the results depend on the processing

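The count of 0 called genes held under 13 of the 14 other settings; without a filter on low counts 5 of 51841 genes passed. There H2ac8 had a log2 fold change of -0.77, H2ac11 -0.51, H4c4 -0.79 and Ahsp -3.27. The interaction with fraction gave 0 calls in each setting run. Leaving out each of the 6 libraries in turn gave 0 to 0 calls for both. With no replicate block, 0 genes were called in either, and 121 and 119 had an unadjusted p under 0.05, against 534 and 400 with the block. By DESeq2 these were 309 and 212, without the filter 1132 and 987, and without the Mylk-shRNA library of litter 2 there were 1290 for the comparison. The fitted direction of Rock1 turned to -0.13 without litter 3, -0.060 without its Mylk-shRNA library and -0.067 without its Rock1/2-shRNA library, and over the libraries left out in turn it ran from -0.067 to 0.14. That of Rock2 turned to -0.024, of Limk2 to 0.014 and of Xist to -0.20 without litter 3, and with each library left out Xist ran from -0.12 (without the Rock1/2-shRNA library of litter 3) to 1.43. The cause was not tested. The median of all genes shifted by at most 0.047. Below 5 CPM, 55.9% of genes had an interval within 2-fold, so depth limits what can be said of weak genes.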

Other observations

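Clustered histone genes were looked at as a group after H2ac8, H2ac11 and H4c4 had been seen among the smallest p-values, so their values are a description. All 13 H2A genes of this kind that were tested were fitted lower with Mylk-shRNA in negative cells, and their log2 fold changes had a median of -0.36. Of the 13, 6 had an unadjusted p under 0.05 (1.16% of all genes did so in that direction). Among these 6 are H2ac8 and H2ac11, whose small p-values led to the grouping. The 6 also include H2ac23 and H2ac24, whose values were nearly the same in each library, so they are not separate results. Outside the 6, H2ac7 and H2ac10 also had nearly the same values, and H2ac18 and H2ac19 moved together. The 13 genes are therefore not 13 separate results. H2ac7, H2ac10, H2ac15 and H2ac25 were lower with Mylk-shRNA in 2 of the 3 litters, and H2ac20 was lower in 1. H2A proteins package DNA in nucleosomes. Poly(A) RNA was sequenced, and how completely it held transcripts of clustered histone genes was not tested. Summed over the 13 genes, the level was 985 CPM, 982 CPM and 488 CPM in litters 1 to 3 with Mylk-shRNA and 1139, 1294 and 799.7 CPM with Rock1/2-shRNA, so the Mylk-shRNA library was the lower in each litter and the groups overlapped. In negative scramble-shRNA cells the sum was 1179, 928 and 664 CPM. H2ac23 stood at 375, 367 and 179 CPM against 416, 496 and 296 CPM, and H2ac24 had nearly the same values in each library. This pair made up most of each Mylk-shRNA and Rock1/2-shRNA sum, so the order of the sums is largely that of the pair. How reads of near-identical copies were divided is not given in the sources used here. H2ac6 stood at 40.9, 44.3 and 25.9 CPM against 54.4, 56.9 and 35.7 CPM, a log2 fold change of -0.39.

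H3 genes were lower in 5 of 5 with a median of -0.16, H2B genes in 3 of 5 with a median of -0.01, and H4 genes in 2 of 3. H4c16 lay the other way, with a log2 fold change of 1.11 at 0.435 to 6.20 CPM. In positive cells 6 of the 13 H2A genes were fitted lower, with a median of 0.02. The unadjusted p of the difference between fractions was 0.0096 for H2ac8 and 0.064 for H2ac11, and edgeR's adjusted p was 1 for both.

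Star, a cholesterol transport protein of steroid-producing cells, was 1 of 2 tested markers of adrenal and gonad. It stood at 0.618, 1.24 and 2.66 CPM with Mylk-shRNA and at 0.522, 0.115 and 1.14 CPM with Rock1/2-shRNA, higher in each litter with overlapping groups and an unadjusted p of 0.0275.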
